A study of Mus musculus with 4 samples.

Results

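The lysyl oxidase family comprises 5 genes in the mouse, Lox and Loxl1 to Loxl4, and all 5 were found by name among the 18109 genes that could be matched across the deposited count files. They were taken as a family and not for their values, although earlier results of these data were known when they were chosen. Their levels were measured in 3 classes of cells of the ascending aorta, each defined by the unique molecular identifiers (UMIs, counts of captured transcripts) of gate genes. Smooth muscle cells were those with at least 5 Myh11 UMIs and no Pdgfra UMI, and fibroblasts those with at least 1 Pdgfra UMI and at most 2 Myh11 UMIs. Macrophages were those with at least 10 UMIs of C1qa, C1qb and Lyz2 together and fewer than 5 of Myh11. Levels are given as CPM, the UMIs of a gene per 1000000 UMIs of its class in a library.

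Lysyl oxidases are secreted copper enzymes that oxidise lysine side chains of tropoelastin and of collagens, and the aldehydes so formed condense into the covalent cross-links of elastic fibres and collagen fibrils. Lox and Loxl1 have a propeptide that is removed outside the cell, whereas Loxl2, Loxl3 and Loxl4 carry scavenger receptor domains before the catalytic domain. In the aorta the family is known for the strength of the elastic lamellae, and loss of Lox in mice leads to aortic aneurysm and rupture.

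All members share the catalytic domain at the end of the coding sequence, and the stretch printed here shows how much of it they have in common. It is the longest run of codons, 13, that encodes the same residues in all 5 members, and it contains the codon of the lysine that becomes part of the quinone cofactor. Capitals mark the 28 of 39 positions at which all 5 members have the same base, and lower case marks positions at which at least 1 differs. The sequences are from GENCODE M21 on GRCm38 (mm10), printed 5′ to 3′ on the strand of the gene, and the stretch of Lox entered the comparison but is not printed.
Loxl1: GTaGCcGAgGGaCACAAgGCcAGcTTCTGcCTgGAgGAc
Loxl2: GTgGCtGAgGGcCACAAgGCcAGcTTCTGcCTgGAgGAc
Loxl3: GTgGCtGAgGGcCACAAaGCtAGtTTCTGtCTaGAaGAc
Loxl4: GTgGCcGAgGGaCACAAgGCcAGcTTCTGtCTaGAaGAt
The stretch lies in coding exon sequence at chr9:58293627-58293665 (minus strand) in Loxl1, chr14:69689089-69689127 (plus strand) in Loxl2, chr6:83050177-83050215 (plus strand) in Loxl3 and chr19:42598717-42598755 (minus strand) in Loxl4. It covers codons 505 to 517 of Loxl1, 650 to 662 of Loxl2, 630 to 642 of Loxl3 and 635 to 647 of Loxl4.

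Over all aligned codons, this stretch included, the members fell into the 2 groups that their domains give. Aligned by codon, Lox and Loxl1 had the same base at 60.7% of positions, Loxl2, Loxl3 and Loxl4 at 60.4% to 61.9%, and pairs across the groups at 43.6% to 46.0%. Within the last 200 codons of Lox and the codons aligned with them, identity was 72.7% between Lox and Loxl1, 67.0% to 70.0% among the other three and 54.4% to 59.1% across the groups. The longest exact run that any pair of transcripts shared was 32 bases, between Lox and Loxl1.

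The data are droplet libraries made with a 10x Chromium 3′ kit from the ascending aorta of male mice of the strain Mef2c-mTmG, in which living single cells were sorted by lineage reporter. mTmG is a fluorescent reporter that changes colour in cells with Cre recombinase. The cells that drive Cre are not spelt out in the labels, nor are the age of the mice and the number behind a library. SHF stands for the second heart field, an embryonic source of aortic cells, and the series sets cells of that origin beside cells of other origins, in the sort named CNC. The groups analysed were SHF cells without infusion (SHF Baseline), SHF cells after 3 days of infusion with angiotensin II (AngII), the pressor peptide of the renin system (SHF AngII), and CNC cells after the same 3 days of AngII (CNC AngII). Each group has 1 library, and the sample CNC Baseline was not analysed here.

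Values of the 3 libraries are given below in this fixed order, baseline first and CNC AngII last. The AngII ratio is the log2 ratio of (CPM + 1) in SHF AngII over that in SHF Baseline, and the origin ratio that of CNC AngII over SHF AngII. Both share the SHF AngII library. With 1 library a group there is no replicate error, so no difference in what follows was tested, and intervals are exact 95% intervals for counting error only. A difference is called where it reaches 2-fold on the scale of log2(CPM + 1), and the share of all genes that reach it in the same comparison is printed beside it.

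The baseline file lists 18760 genes and the AngII files 32285 each, so an AngII ratio also holds the difference in how these files were made, and the parts cannot be told apart. Origin ratios come from files of 1 gene list, and ratios between classes from 1 library at a time. The libraries held 8374 to 10230 cells after filtering, with a median of 10315.5 to 13310 UMIs a cell. More than 10% mitochondrial UMIs occurred in 7.34%, 14.5% and 5.30% of barcodes, and pairs of libraries had 29 to 34 barcodes in common. Smooth muscle cells numbered 2259, 4639 and 6410, fibroblasts 3939, 2638 and 845, and macrophages 8, 13 and 1769, so macrophage values are given for CNC AngII alone. The sort was not checked against reporter transcripts here.

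Each class carried its own markers. The 7 smooth muscle markers summed to 56389 to 63727 CPM in smooth muscle cells, the 7 fibroblast markers to 12468 to 27713 CPM in fibroblasts, and the 8 macrophage markers to 27199 CPM in the macrophages of CNC AngII. In fibroblasts the smooth muscle markers summed to 1291, 4049 and 3973 CPM, with none of the 7 at 0. Acta2 (584, 1986 and 1993 CPM) and Tagln (606, 1962 and 1850 CPM) made up most of that sum. Cnn1 went from 6.75 CPM at baseline to 15.4 CPM in SHF AngII, and Myh11, limited by the gate, from 5.62 to 8.49 CPM. Lmod1, Myocd and Smtn were lower in SHF AngII than at baseline. The fibroblast markers summed to 27713, 14544 and 12468 CPM in fibroblasts, with Col1a1 alone higher in SHF AngII than at baseline. In smooth muscle cells they summed to 1187, 1426 and 1192 CPM, with Pdgfra at 0 by the gate, but most of this was Col1a1 (709, 1100 and 1138 CPM). Other fibroblast markers were lower in CNC AngII smooth muscle than in the SHF libraries, with Dcn at 311, 168 and 21.8 CPM and Lum at 85.1, 74.0 and 9.22 CPM. Macrophage markers in smooth muscle cells summed to 2.34, 1.37 and 319 CPM.

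Fibroblasts held far more Lox after AngII than at baseline, while Loxl1 in the same cells stood at the same CPM. Smooth muscle cells held more of each member in both AngII libraries than at baseline, with Lox just short of 2-fold in SHF AngII. The AngII libraries of SHF and CNC cells differed little. On the scale of log2(CPM + 1), Loxl2 and Loxl3 of smooth muscle were farthest apart and in opposite directions. Macrophages held 1.29% to 8.89% of the smooth muscle level, depending on the member.

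**Figure D1:**
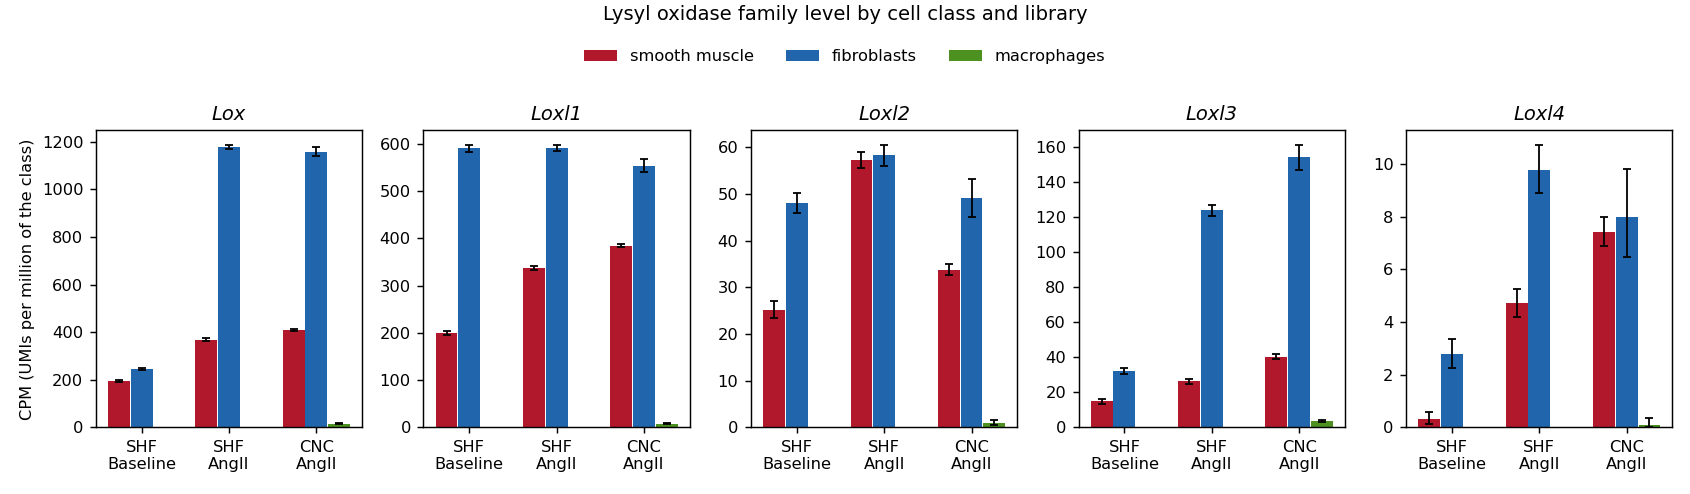
Level of each member (CPM, linear axis from 0, with its own scale in each panel) in smooth muscle cells, fibroblasts and, for CNC AngII, macrophages of the 3 libraries; bars are 1 library each and error bars are exact 95% Poisson intervals. Lox in fibroblasts goes from 246 CPM at baseline to 1178 and 1158 CPM in the AngII libraries, whereas Loxl1 stays between 554 and 592 CPM.

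Lox, the founding member and the main enzyme of elastin and fibrillar collagen cross-linking, lies at chr18:52516067-52529867 on the minus strand and has 7 exons. In fibroblasts it stood at 246 CPM (interval 241 to 251), 1178 CPM (1168 to 1188) and 1158 CPM (1138 to 1178). Both AngII libraries were thus high and close together, and the baseline library was low. The AngII ratio was 2.25, a 4.79-fold difference without pseudocount (4.68 to 4.89), and 1.47% of the 7692 genes compared had a higher ratio. The origin ratio was -0.025, and its sign changed between alternatives, from -0.13 with gates by Cnn1 and Lum to 0.12 with the stricter gate.

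Lox in smooth muscle cells stood at 194, 369 and 409 CPM. Again the baseline library was the lowest, with an AngII ratio of 0.93, just short of 2-fold. Without pseudocount, fibroblasts held 1.27-fold, 3.19-fold and 2.83-fold as much Lox as smooth muscle cells of the same library. The small difference at baseline turned to a log2 ratio of -0.077 with the stricter cell filter, which kept 120 of 2259 baseline smooth muscle cells. The differences under AngII stayed past 2-fold in 12 of 12 alternatives. The part of the smooth muscle markers in fibroblasts in these differences was not tested. Exons of Lox overlap those of AC161119.1 on the opposite strand, for which no count was used here.

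The share of cells with a Lox UMI moved with the level. In fibroblasts it was 62.7%, 93.4% and 87.9%, at median depths of 9534, 15485.5 and 12369 UMIs. Once each cell was thinned to 2000 UMIs, leaving out 172, 16 and 5 shallower cells, it was 32.7%, 70.1% and 65.8%. Thinning thus left the order of the libraries as it was. For smooth muscle cells the share was 81.9%, 85.6% and 92.1%, at median depths of 12441, 13325 and 13469.5 UMIs, and 29.5%, 42.8% and 49.5% after thinning. Macrophages of CNC AngII, taken here as the class that should lack the gene, had a share of 9.44% at a median of 11117 UMIs, and 44 of 1758 cells after thinning. Every thinned share of fibroblasts and smooth muscle cells lay above the macrophage share.

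The thinned Lox counts of single fibroblasts were also spread more widely under AngII. At 2000 UMIs a cell, 1.62%, 17.1% and 17.5% of fibroblasts had at least 4 Lox UMIs, while 67.3%, 29.9% and 34.2% had none. The variance over the mean of the thinned counts, which is 1 for pure counting noise, was 1.68, 2.93 and 3.16, and in smooth muscle cells 1.14, 1.27 and 1.24. For Loxl1 in fibroblasts it was 1.32, 1.23 and 1.26. Variance over mean was thus larger for Lox in AngII fibroblasts, where the mean thinned count was 1.94 and 1.88, against 0.513 at baseline. It was not larger for Loxl1, whose mean was 1.13, 1.21 and 1.09. This measure can rise with the mean alone, so whether Lox was more uneven beyond its higher level was not tested.

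Loxl1, which is tethered to elastic fibres and needed for their upkeep, lies at chr9:58287738-58313186 on the minus strand with 7 exons. In fibroblasts it stood at 591, 592 and 554 CPM. All 3 libraries were close, and SHF AngII over baseline was 0.983-fold to 1.02-fold by counting error. For smooth muscle cells the levels were 200, 337 and 385 CPM, with the baseline library the lowest and an AngII ratio of 0.75. The excess of fibroblasts over smooth muscle cells was therefore smaller under AngII, with log2 ratios of 1.56, 0.81 and 0.52.

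Loxl1 was the most widely detected member in fibroblasts at baseline. A Loxl1 UMI was found in 91.0%, 97.1% and 96.0% of fibroblasts, and in 62.7%, 67.0% and 61.7% after thinning to 2000 UMIs. The thinned shares of smooth muscle cells were 31.2%, 43.7% and 50.2%, and that of the macrophages of CNC AngII was 1.19%.

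Loxl2, a secreted member that acts on basement membrane collagen IV among other substrates, lies at chr14:69609068-69695834 on the plus strand with 14 exons. Smooth muscle cells held 25.1, 57.3 and 33.8 CPM. The SHF AngII library alone was high, and CNC AngII lay between it and the baseline library. The AngII ratio was 1.16 and the origin ratio -0.74, with 99.4% of 6764 genes at a higher ratio than Loxl2 in the latter. The AngII ratio stayed past 2-fold in 9 of 12 alternatives, down to 0.92 after thinning, and the origin ratio stayed below 0 in 12 of 12.

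In fibroblasts Loxl2 stood at 48.0, 58.3 and 49.0 CPM, with an AngII ratio of 0.28 and an origin ratio of -0.25, so that in SHF AngII both classes held nearly the same level. The lower Loxl2 of CNC smooth muscle was found in each subgroup of smooth muscle cells compared, with origin ratios between -1.04 and -0.72. Gm27177, a gene on the opposite strand whose exons overlap those of Loxl2, had 1 UMI in baseline smooth muscle cells and none in the other classes and libraries. The fibroblast markers Dcn and Lum were lower in the same CNC cells, and their part in the origin ratio of Loxl2 was not tested. With 5% of the library profile subtracted, a fixed share that was not measured, that ratio was -0.74.

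Loxl3, whose loss in mice disturbs the palate and the spine, lies at chr6:83034173-83052562 on the plus strand with 14 exons. It stood at 32.3, 124 and 154 CPM in fibroblasts. Baseline was low and both AngII libraries high, as with Lox, and the AngII ratio was 1.91. The levels in smooth muscle cells were 14.8, 26.2 and 40.5 CPM, with SHF AngII between the others, an AngII ratio of 0.78 and an origin ratio of 0.61. In the origin comparison 0.902% of genes had a higher ratio than Loxl3.

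Exons of Loxl3 overlap those of Htra2, a mitochondrial protease gene on the opposite strand, and the strand setting of the counting is not given in the sources used here. Htra2 stood at 62.0, 70.5 and 64.9 CPM in fibroblasts and 22.0, 24.2 and 27.0 CPM in smooth muscle cells. The level of Htra2 differed less between the libraries than that of Loxl3, and the part of Htra2 reads in the Loxl3 counts was not tested. The share of fibroblasts with a Loxl3 UMI was 24.5%, 67.2% and 64.1%, against 3.67% in macrophages of CNC AngII. After thinning, 226 of 3767, 468 of 2622 and 159 of 840 fibroblasts had one, against 0.626% of the macrophages.

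Loxl4, at chr19:42593982-42612813 on the minus strand with 15 exons, was close to the limit of detection in baseline smooth muscle, with 9 UMIs over 2259 cells. Smooth muscle cells held 0.305, 4.71 and 7.42 CPM, fibroblasts 2.77, 9.78 and 8.01 CPM, and the 1769 macrophages 2 UMIs. It was the member with the lowest level in each class, and the baseline library was the lowest in both classes. Without pseudocount SHF AngII over baseline was 15.5-fold in smooth muscle cells (8.05 to 34.1) and 3.53-fold in fibroblasts (2.85 to 4.41). The AngII ratios, with the pseudocount of 1 CPM, were 2.13 and 1.52.

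Set against all genes, 4 of the 5 members passed the minimum mean of 10 CPM in every comparison, and Loxl4 passed it in none. For the AngII ratio in smooth muscle 1 of these 4, Loxl2, was called higher, beside 6.37% of 6997 genes in either direction, 2.87% higher and 3.5% lower. The median of the 4 was 0.85, and that of all genes -0.10, with 41.1% of genes above 0. Loxl4 also passed 2-fold, which makes 2 of 5 without the minimum.

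Among fibroblasts 2 of the 4, Lox and Loxl3, were called higher, beside 15.4% of 7692 genes in either direction, 4.64% higher and 10.7% lower, and with Loxl4 the count was 3 of 5. The median of the 4 was 1.09, that of all genes -0.21, and 37.2% of genes were above 0. Scaling the libraries by the trimmed mean of M values (TMM) moved the median of all genes to 0.07 in smooth muscle and 0.05 in fibroblasts. With it the share of higher genes among those called went from 45.1% to 65.4% in smooth muscle and from 30.2% to 57.9% in fibroblasts. On that scale the AngII ratio of Lox in smooth muscle was 1.10, past 2-fold, and that of Loxl1 in fibroblasts 0.27.

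Lox and Loxl3 differed more from baseline in fibroblasts than in smooth muscle, and the other members the reverse, except that Loxl4 turned with a pseudocount of 10 CPM (0.63 in fibroblasts and 0.51 in smooth muscle). The AngII ratio of fibroblasts minus that of smooth muscle was 1.33 for Lox and 1.12 for Loxl3, and -0.75, -0.88 and -0.61 for Loxl1, Loxl2 and Loxl4. Over 6491 genes, 3.40% were at least 1 apart in either direction, with a median difference of -0.10.

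**Figure D2:**
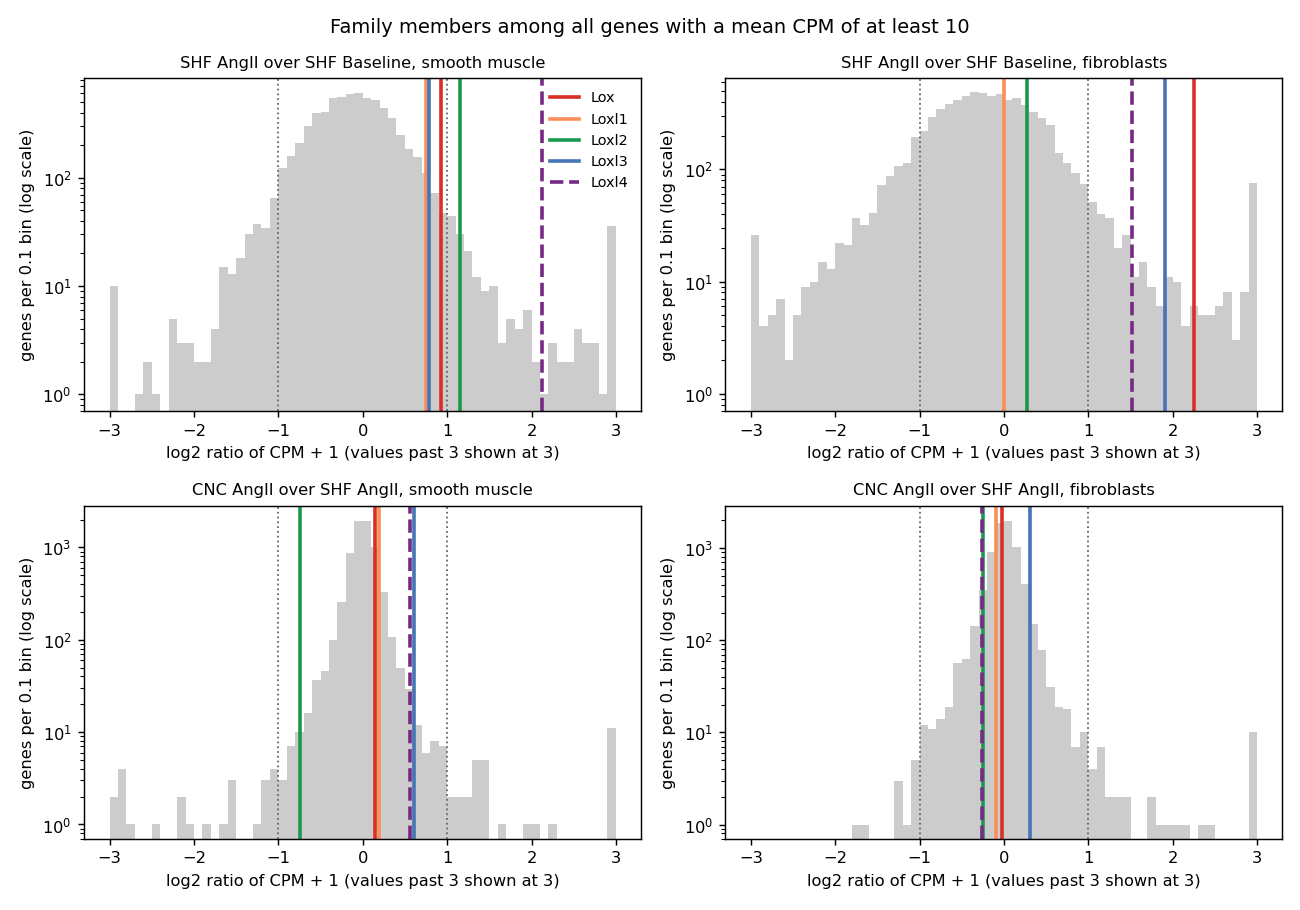
Number of genes (log axis) by log2 ratio, for SHF AngII over SHF Baseline (upper panels) and CNC AngII over SHF AngII (lower panels) in smooth muscle cells (left) and fibroblasts (right), with the members as vertical lines and 2-fold as dotted lines; Loxl4, below the minimum level, is dashed. Lox and Loxl3 lie in the right tail of the fibroblast AngII ratios at 2.25 and 1.91, and in the lower panels all members lie within 2-fold.

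No member reached 2-fold between the AngII libraries. The background was 0.813% of 6764 genes in smooth muscle (0.458% higher and 0.355% lower in CNC AngII) and 0.638% of 7215 genes in fibroblasts (0.485% higher and 0.152% lower). The origin ratios in smooth muscle were 0.15 for Lox, 0.19 for Loxl1, -0.74 for Loxl2, 0.61 for Loxl3 and 0.56 for Loxl4. Those in fibroblasts were -0.025, -0.095, -0.25, 0.31 and -0.26 in the same order. The median size of the ratio over all genes, regardless of sign, was 0.086 in smooth muscle and 0.092 in fibroblasts, so Loxl2 and Loxl3 were far from the middle of the genes without reaching 2-fold. The number of Loxl2 UMIs per Loxl3 UMI was 1.69, 2.18 and 0.835 in smooth muscle and 1.49, 0.470 and 0.318 in fibroblasts.

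Fibroblasts held more of every member than smooth muscle cells of the same library, though Loxl2 in SHF AngII and Loxl4 in CNC AngII differed by less than counting error. With the stricter cell filter these log2 ratios turned to -0.28 and -0.25, and they kept their sign in 7 and 9 of 12 alternatives. At baseline 2 of the 4 members above the minimum, Loxl1 and Loxl3, were called higher in fibroblasts (3 of 5 with Loxl4), beside 21.5% of 7733 genes in either direction, 13.9% higher and 7.58% lower. Under AngII the 2 were Lox and Loxl3, beside 22.4% of 7191 genes for SHF cells (12.8% higher and 9.58% lower) and 21.3% of 7246 genes for CNC cells (12.1% higher and 9.21% lower). The log2 ratios between the classes were 1.07, 2.20 and 1.90 for Loxl3, and 0.91, 0.025 and 0.53 for Loxl2. TMM moved the median of all genes in these 3 comparisons from 0.19, 0.11 and 0.11 to -0.060, -0.096 and -0.12. The share of higher genes among those called went from 64.7%, 57.3% and 56.9% to 51.3%, 46.6% and 45.0%.

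The share of Lox in the family differed between the libraries in fibroblasts and hardly in smooth muscle. A 3′ library counts a transcript by its end, so UMIs of different members can be added without a correction for length. Together the 5 members stood at 920, 1962 and 1923 CPM in fibroblasts, a 2.13-fold difference between the SHF libraries (2.11 to 2.16), and at 434, 794 and 876 CPM in smooth muscle cells, 1.83-fold (1.80 to 1.87). Of the family's UMIs in fibroblasts, Lox made up 26.7%, 60.1% and 60.2%, and Loxl1 64.2%, 30.2% and 28.8%. In smooth muscle cells Lox made up 44.7%, 46.5% and 46.7%, and Loxl1 46.0%, 42.4% and 44.0%. The scarcer members moved there, with Loxl2 at 5.79%, 7.21% and 3.86% and Loxl3 at 3.42%, 3.30% and 4.62%.

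Lox UMIs per Loxl1 UMI accordingly numbered 0.416, 1.99 and 2.09 in fibroblasts, and 0.970, 1.10 and 1.06 in smooth muscle cells. Against its substrates Lox ranked the classes in opposite ways. For every 1000 UMIs of Eln, the gene of tropoelastin, fibroblasts held 91.3, 305 and 259 UMIs of Lox and smooth muscle cells 74.4, 85.7 and 70.9. For every 1000 UMIs of Col1a1, a chain of collagen I, fibroblasts held 66.7, 266 and 305 and smooth muscle cells 273, 335 and 359, so here smooth muscle was the higher class in each library. Lox and Eln thus kept nearly the same proportion in smooth muscle of the 3 libraries, and in fibroblasts they did not.

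**Figure D3:**
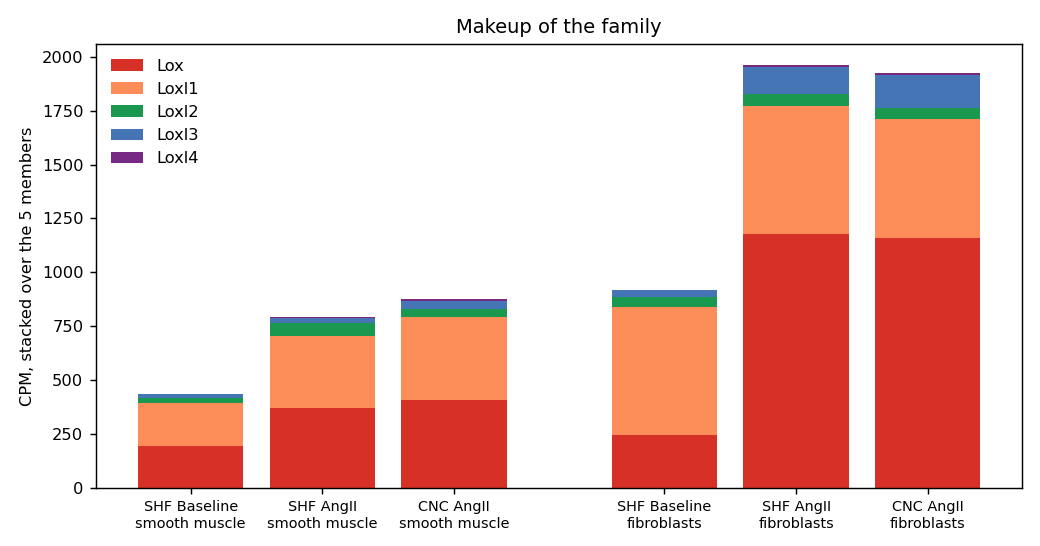
CPM of the 5 members stacked for smooth muscle cells and fibroblasts of each library (linear axis from 0). Fibroblast bars go from 920 to 1962 and 1923 CPM with Lox going from 26.7% to 60.1% and 60.2% of the family, while smooth muscle bars keep a Lox share of 44.7% to 46.7%.

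Within fibroblasts the Lox level under AngII went with Cthrc1, a secreted protein gene that marks activated fibroblasts. Fibroblasts with a Cthrc1 UMI held 239, 1386 and 1442 CPM of Lox, and those without it 247, 577 and 572 CPM. Both subgroups were above baseline under AngII, with AngII ratios of 2.53 and 1.22. The log2 ratio of cells with over cells without Cthrc1 was -0.047 at baseline and 1.26 and 1.33 under AngII, so the subgroups stood apart in both AngII libraries and not at baseline. Fibroblasts with Cthrc1 numbered 476 of 3939, 1644 of 2638 and 470 of 845, and had a median of 12112.5, 19231 and 15157.5 UMIs, against 9162, 10656.5 and 8754 in those without. The part of depth in this split was not tested.

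The other members split differently along Cthrc1. Loxl3 went the way of Lox, at 142 CPM with and 71.9 CPM without Cthrc1 in SHF AngII, and 38.0 and 31.2 CPM at baseline. Loxl2 was higher with Cthrc1 in every library, at 82.3, 69.0 and 59.7 CPM against 41.6, 27.3 and 27.0 CPM. In each subgroup taken alone Loxl2 was lower in SHF AngII than at baseline, with AngII ratios of -0.25 and -0.59, while over all fibroblasts the ratio was 0.28, since the cells with Cthrc1 were more of the total under AngII. Loxl1 was nearly level, at 587 CPM with and 605 CPM without Cthrc1 in SHF AngII.

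Other splits of fibroblasts gave smaller gaps in Lox than Cthrc1 under AngII, though at baseline the gap by Comp or Chad was larger. Those with a UMI of Comp or Chad, genes known from cartilage and tendon, held 197, 1512 and 1393 CPM of Lox, against 253, 1043 and 1001 CPM in those without. They were thus the lower subgroup at baseline and the higher one under AngII. Fibroblasts with Pi16, a marker of the adventitia, held 247, 1206 and 1211 CPM of Lox and those without it 242, 857 and 791 CPM. Fibroblasts with an Mki67 or Top2a UMI, genes of dividing cells, held 1231 CPM in SHF AngII against 1161 CPM in the others.

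Smooth muscle was split by other genes. Cells with a UMI of Igfbp2, a binding protein of insulin-like growth factors, held 224, 393 and 422 CPM of Lox and those without it 183, 302 and 339 CPM. Cells with Tnnt2, the gene of cardiac troponin T, held 185, 323 and 381 CPM and those without it 215, 428 and 417 CPM. The first split was thus higher with its gene and the other one lower, in each library. Cells with at least 5 UMIs of Spp1, the gene of osteopontin and a sign of phenotypic modulation, held 496 and 500 CPM of Lox in SHF AngII and CNC AngII, against 349 and 383 CPM in cells with none, and 40.7 and 57.0 CPM of Loxl3, against 24.3 and 36.0 CPM. All of these subgroups held less Lox under AngII than the fibroblasts of the same library.

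**Figure D4:**
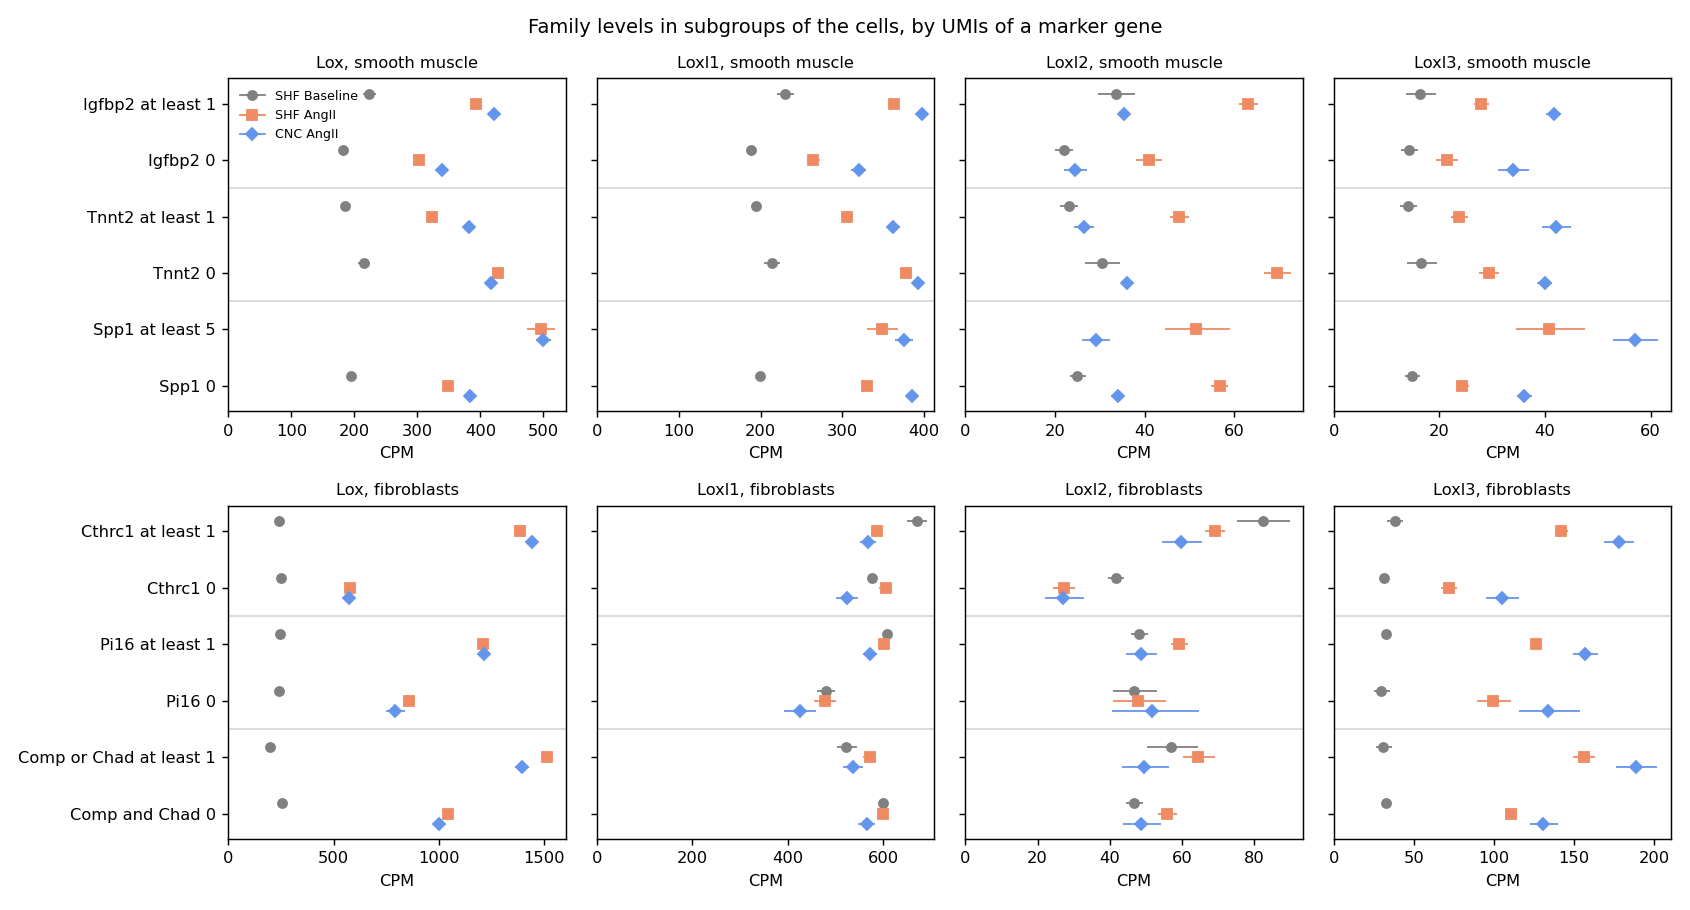
CPM of Lox, Loxl1, Loxl2 and Loxl3 (columns, linear axes from 0) in smooth muscle cells (upper panels) and fibroblasts (lower panels) with and without UMIs of a marker gene, with the 3 libraries as separate symbols; horizontal lines are exact 95% Poisson intervals and subgroups under 50 cells are left out. Lox is split by Cthrc1 in the AngII libraries (1386 against 577 CPM in SHF AngII) and not at baseline (239 against 247 CPM), and Loxl2 of smooth muscle is highest in SHF AngII in each subgroup shown.

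Cells just outside the gates held somewhat less Lox than cells just inside, in each library given here. Fibroblasts with exactly 1 Pdgfra UMI held 240, 1037 and 897 CPM of Lox, and cells just outside, with no Pdgfra, at most 2 Myh11 UMIs and no macrophage gate, 205, 893 and 793 CPM. Smooth muscle cells with 5 or 6 Myh11 UMIs held 372 and 380 CPM in SHF AngII and CNC AngII, and cells with 3 or 4 held 364 and 362 CPM. Endothelial cells, defined by Pecam1 and Cdh5, held 154 CPM in 135 cells at baseline and 276 CPM in 63 cells of SHF AngII.

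Macrophages of CNC AngII held 14.9 CPM of Lox, 7.96 of Loxl1, 1.01 of Loxl2, 3.60 of Loxl3 and 0.0959 of Loxl4. As a share of the smooth muscle level in the same library this was 3.63% for Lox, 2.07% for Loxl1, 2.98% for Loxl2, 8.89% for Loxl3 and 1.29% for Loxl4. For other genes the share was 2.47% (Eln), 3.82% (Col1a1), 0.799% (Acta2) and 193% (Dcn). Of the 310 Lox UMIs, 45.2% lay in 10 cells, and 1 cell that also met the fibroblast gate held 82. Without the 10 cells that met both gates, Lox stood at 9.71 CPM and Loxl1 at 5.27 CPM. Of the 201 Lox UMIs then left, 21.4% lay in 10 cells, so they were less concentrated than with the cells of both gates. Over the whole class, 167 of 1769 cells had a Lox UMI. Macrophages with neither Lyve1 nor Ccr2, markers of resident and of recruited macrophages, held 96.6 CPM of Lox in 129 cells, but 23.9 CPM without 1 cell that also met the fibroblast gate, and 20 of the 26 UMIs left lay in 1 cell. Lox stood at 10.1 CPM in 1354 cells with Lyve1 and 11.3 CPM in 286 with Ccr2 and no Lyve1.

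Genes that act with the family were compared in 6 lists, of which the one for collagen modification in the endoplasmic reticulum had the highest fibroblast median. All 12 of its genes above the minimum were higher in SHF AngII than at baseline in both classes and under every alternative, with a median AngII ratio of 0.74 in smooth muscle (1 called, beside 2.87% of all genes called higher and 3.5% lower) and 1.09 in fibroblasts (7 called, beside 4.64% higher and 10.7% lower). The calls of the lists that follow stand beside the same shares. Fkbp10, a chaperone of procollagen that aids lysine hydroxylation of its ends, stood at 56.9 CPM at baseline and 220 CPM in SHF AngII in fibroblasts, and at 43.3 and 137 CPM in smooth muscle, with ratios of 1.94 and 1.64. Plod1, a lysyl hydroxylase, had ratios of 0.43 and 0.99, and P4ha2, a subunit of prolyl hydroxylase, 1.28 in fibroblasts.

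The substrates of the family differed less than Lox itself in fibroblasts. All 8 were higher in SHF AngII there, 3 of them called beside 4.64% of all genes, with a median AngII ratio of 0.41, among them the basement membrane collagens Col4a1 at 1.28 and Col4a2 at 1.15. By the mean of per-cell shares Col1a2 and Col3a1 turned to -0.092 and -0.0061. For smooth muscle 5 of 8 were higher and none called, with a median of 0.47, from -0.43 for Col3a1 to 0.78 for Col5a2. Eln in smooth muscle stood at 2603, 4306 and 5773 CPM, an AngII ratio of 0.73 and an origin ratio of 0.42.

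The elastic fibre scaffold differed in both directions. In fibroblasts 5 of 11 genes were higher in SHF AngII, with 2 called in each direction (beside 4.64% of all genes higher and 10.7% lower) and a median of -0.059. In smooth muscle 6 of 11 were higher, with 2 called higher, 1 lower (beside 2.87% and 3.5%) and a median of 0.0059. Efemp2, the gene of fibulin-4, which brings Lox to tropoelastin, stood at 111 and 359 CPM in fibroblasts of the SHF libraries and at 81.9 and 165 CPM in smooth muscle, past 2-fold in both, though in smooth muscle only in 4 of 12 alternatives, down to a ratio of 0.86. Ltbp4, which guides fibulin-5 to microfibrils, was lower, at 825 and 191 CPM in fibroblasts and 421 and 135 CPM in smooth muscle, with ratios of -2.10 and -1.63. Fbln1 had -1.26 and Emilin1 1.09 in fibroblasts, and Fbln2 2.64 in smooth muscle, from 1.39 with the stricter cell filter to 6.05 with 5% of the library profile subtracted. The sign of both medians changed between alternatives, to 0.21 in fibroblasts under TMM and to -0.19 in smooth muscle with the stricter cell filter.

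Of the genes that process or dock the proenzyme, 5 of 8 in fibroblasts and 5 of 7 in smooth muscle were higher in SHF AngII, with medians of 0.47 and 0.75. In fibroblasts 1 was called higher and 2 lower, beside 4.64% and 10.7% of all genes, and in smooth muscle 1 higher, beside 2.87%. Postn, the gene of periostin, which binds a protease that activates Lox, had ratios of 1.60 and 1.23, and Fn1, the gene of fibronectin, 0.87 in smooth muscle. Pcolce2 and Fmod, genes of collagen-binding proteins, had -1.42 and -1.40 in fibroblasts.

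Copper delivery and known inducers held 0 and 2 called genes in fibroblasts, beside 15.4% of all genes. Of the copper genes 2 of 3 above the minimum were higher in each class and none called, with medians of 0.28 in fibroblasts and 0.48 in smooth muscle. In 9 alternatives 4 copper genes and not 3 passed the minimum in fibroblasts, and the median was then below 0, down to -0.22. The inducers had a median of -0.23 in fibroblasts, where 4 of 8 were higher, with Snai1, a transcription factor of mesenchymal cells, at 1.41 and Smad3, a transducer of transforming growth factor beta, at -1.14. TMM moved that median to 0.041. In smooth muscle 5 of 5 were higher, none called, with a median of 0.31.

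Between the AngII libraries these lists differed little. The only list genes called in smooth muscle were Fbln1, whose level was 30.7 CPM among SHF and 2.62 CPM among CNC cells (origin ratio -3.13), and Pcolce, with 52.9 and 25.3 CPM (-1.04), beside 0.355% of all genes lower. Pcolce was past 2-fold in 8 of 12 alternatives and at -0.54 with 5% of the library profile subtracted. The fibroblast markers Dcn and Lum differed the same way in these cells, and their part in both calls was not tested. In fibroblasts no gene of the 6 lists was called. The medians of the lists lay between -0.22 and 0.12 in smooth muscle and between -0.18 and 0.067 in fibroblasts, beside family medians of 0.17 and -0.060.

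**Figure D5:**
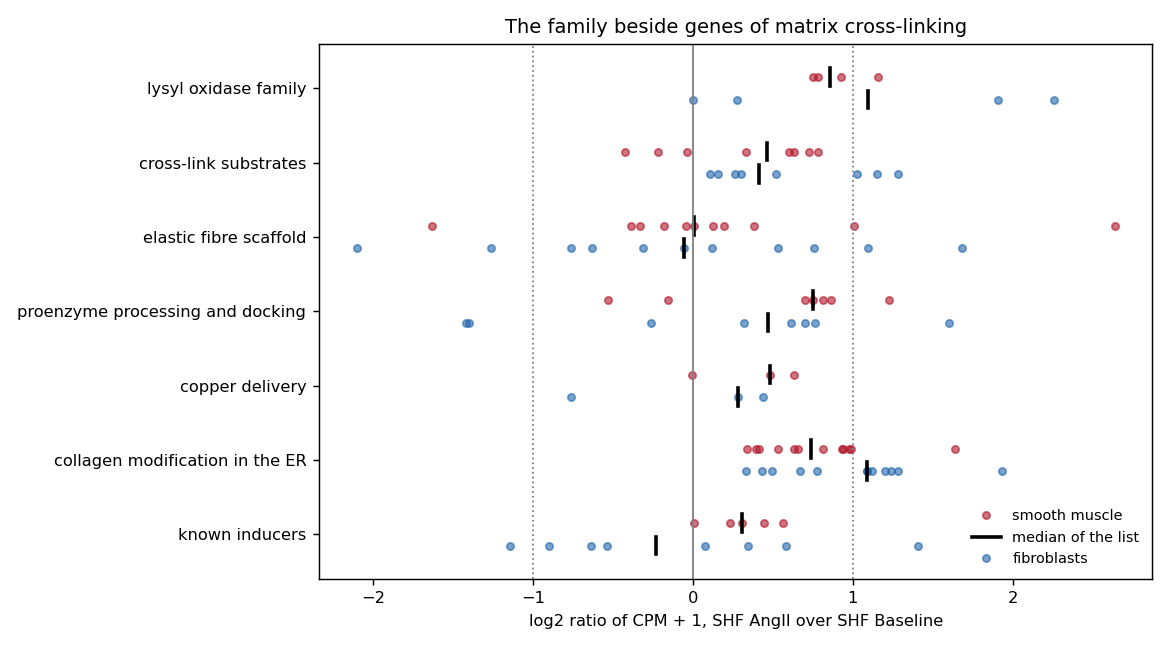
Log2 ratio of SHF AngII over SHF Baseline for each gene above the minimum level (points) in the family and 6 lists of genes that act with it, in smooth muscle cells and fibroblasts, with the median of each list as a black bar and 2-fold as dotted lines. All genes of collagen modification lie above 0 in both classes, while the elastic fibre scaffold spreads from -2.10 to 2.64.

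The pattern of each member over 13 groups of cells was compared with that of 2597 genes by Pearson's r of log2(CPM + 1), as a description over groups that share libraries and classes. The genes most like Lox were Efemp2 (r = 0.988), Tbrg1 (0.986) and S100a11 (0.973). Those most like Loxl1 were Fkbp7 (0.996), Ikbip (0.996) and Sparc (0.994). For Loxl2 they were Mmp23 (0.976), Kdelr3 (0.974) and Fam114a1 (0.973), and for Loxl3 Prrc1 (0.971), Dnajc25 (0.968) and Praf2 (0.966). Within the family r was 0.940 for Lox with Loxl3, 0.969 for Loxl1 with Loxl2, 0.895 for Lox with Loxl1 and 0.737 for Loxl2 with Loxl3. The macrophages of CNC AngII, 1 of the 13 groups, had the lowest level of every member. Loxl1 stood at 7.96 CPM there and at up to 608 CPM in the other groups. Each r and the order of the genes can thus rest largely on this 1 group, and r without it was not computed.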

How the data were processed

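The authors deposited 1 table of raw UMI counts per library, genes by cell barcodes, and the counts carry no normalization. Per the labels' protocols the libraries were made with a 10x Chromium Single Cell 3′ v3 kit. The submitters' processing notes name fastp, STAR 2.5, HTSeq 0.6.1 and the build mm10, with no role or order given, and no header names a gene annotation. No barcode has a total under 500 UMIs, and the libraries hold 92474476 to 150954701 UMIs. No column of another sample was present (0 columns).

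Gene names were matched to 18109 common genes (17594 by name and 515 by a synonym, with 13 repeated names left out), which hold at least 99.6% of the UMIs. Cells with fewer than 500 genes or over 10% mitochondrial UMIs were removed, as were doublets called with Scrublet in scanpy 1.11.5 (2.23% to 2.29% of cells). For each class in a library the UMIs of a gene were added up and divided by the class total to give CPM. Ratios used log2(CPM + 1) and genes with a mean of at least 10 CPM over the groups compared. Intervals are exact Poisson or Clopper-Pearson intervals at 95%, from scipy 1.17.1, and the ratio and interval code was tested on simulated data. TMM factors came from edgeR 4.0.16 and coding sequences were aligned with mafft 7.526. Cells of 1 library are not replicates, so no test was made.

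The members, the 6 lists and the subgroups were chosen with earlier results of these data known. Of each list, up to 2 genes with the highest and 2 with the lowest ratio in a comparison could be named, and for each member the 3 genes with the highest r. Alternatives changed the cell filter, doublets, gates, scaling, weighting, depth, pseudocount, free RNA and gene minimum. Gates by Cnn1 and Lum, and the alternatives within Cthrc1 subgroups, were chosen after seeing the data.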

Additional observations from a re-analysis of the deposited data

Results flagged for a closer look

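For Loxl1, CNC AngII lay above SHF AngII in smooth muscle cells (log2 ratio 0.19) and below it in fibroblasts (log2 ratio -0.095), with the counting intervals of both ratios on opposite sides of 0. Each group is 1 library, and whether the ratio differs between these classes was not tested.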

How the results depend on the processing

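No paired analysis was possible because each group has 1 library, so no fit with a replicate block could be made. The log2 ratios of Lox are given here in the order SHF AngII over SHF Baseline (fibroblasts, smooth muscle), CNC AngII over SHF AngII (fibroblasts, smooth muscle) and fibroblasts over smooth muscle (SHF Baseline, SHF AngII, CNC AngII), where an alternative took them beyond their counting interval. TMM gave 2.53 and 1.10 for the AngII response and 0.090, 1.47 and 1.26 between classes. The mean of per-cell shares gave 1.93 and 0.78, then 0.21 in smooth muscle, then 0.42, 1.58 and 1.32. Thinning to 2000 UMIs gave 1.92 and 0.79, then 0.25 in smooth muscle, then 0.47, 1.60 and 1.31. The stricter cell filter (at least 1000 genes, at most 5% mitochondrial UMIs) left 120 smooth muscle cells of SHF Baseline and gave 0.77 and 0.051 in smooth muscle, then -0.077, 1.43 and 1.37. Gates by Cnn1 and Lum gave 2.21 and -0.13 in fibroblasts, then 0.25, 1.56 and 1.29. The stricter gate gave 0.12 in fibroblasts between the AngII libraries and 1.65 between classes in CNC AngII. Subtracting 5% of the library profile gave 0.87 and 0.21 in smooth muscle, then 1.77 and 1.55 between classes under AngII. Totals without mitochondrial and ribosomal protein genes gave 2.32 in fibroblasts, then 1.73 and 1.55 between classes under AngII. A pseudocount of 10 CPM gave 2.21 in fibroblasts and 1.65 between classes in SHF AngII, and keeping doublets gave -0.053 and 0.12 between the AngII libraries. Lox in fibroblasts was past 2-fold for SHF AngII over SHF Baseline in 12 of 12 alternatives, and in smooth muscle in 1 of 12.

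The number of members past 2-fold was 2 of 5 in smooth muscle for SHF AngII over SHF Baseline, beside 6.37% of all genes. It became 1 by the mean of per-cell shares (5.30% of genes), 1 after thinning (6.21%) and 0 with a pseudocount of 10 CPM (3.40%). That pseudocount also took the count between classes at baseline to 1, beside 15.9% of genes. These counts include Loxl4, which is below the minimum that the shares over all genes apply. Loxl2 in fibroblasts for SHF AngII over SHF Baseline ranged from -0.061 (gates by Cnn1 and Lum) to 0.54 (TMM). Over all genes the number past 2-fold in smooth muscle was 446, 1096 with the stricter cell filter and 238 with the pseudocount of 10 CPM, and in fibroblasts 1181 and 621 with that pseudocount. Between the AngII libraries it was 55 in smooth muscle, 34 with the stricter gate and 33 with the pseudocount of 10 CPM, and 46 in fibroblasts, 70 with doublets kept and 26 with that pseudocount. The cause of these shifts was not tested. Ratios of Loxl4 rest on few counts, with 9 UMIs in baseline smooth muscle. Without replicate libraries, no ratio here has an error between mice.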
